A study of Rattus norvegicus with 2 samples.

Results

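The potassium, sodium and calcium channel genes of cultured rat oligodendrocyte-lineage cells were compared between a library from cells given a scrambled siRNA (siSCR) and a library from cells given an siRNA against Hsc70 (siHsc70). The members were all rows of the deposited expression table whose symbol begins with Kcn and a letter, with Scn, a number and a or b, or with Cacn and a letter from a to g. This gave 124 of the 18049 genes in the table: 85 potassium, 13 sodium and 26 calcium channel genes, with accessory subunits classed by symbol. The calcium class thus includes 8 Cacng genes, most of which encode regulatory proteins of AMPA-type glutamate receptors. Both groups were wild type oligodendrocyte precursor cells (OPCs) immunopanned from the cortex of early postnatal rat pups, electroporated with siRNA and differentiated with the thyroid hormone T3 at 60 nM. The series describes them as immature oligodendrocytes on day 2 of T3. Each group was 1 library, so no test between the groups was possible, and the differences below describe these 2 libraries.

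Ion channels set the membrane potential of a cell and its response to signals from its neighbours. OPCs carry voltage-gated potassium and sodium currents and receive synaptic input from axons, and this excitability is known to decline as the cells mature, while inward rectifier potassium channels come to dominate. In mature oligodendrocytes the inward rectifier Kir4.1, encoded by Kcnj10, takes up potassium that active axons release, and calcium channels are known to take part in process extension and myelin gene expression.

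Levels are given as CPM (counts relative to library size, scaled between the libraries with TMM factors) where a gene is compared between libraries, and as the deposited TPM (scaled for transcript length) where genes are compared with each other. On the TPM scale the median of all measured genes was itself shifted, to -0.13 in siHsc70 relative to siSCR. A difference is the log2(CPM + 1) of siHsc70 minus that of siSCR, a scale that understates the change of low genes. A gene was called measured when its mean over both libraries reached 1 CPM, and at least 2-fold higher or lower when its difference reached 1. Folds of single genes are ratios of CPM with a 95% exact (Clopper-Pearson) counting interval, which covers counting error only and not the spread between cultures. The libraries held 19085587 counts for siSCR and 18130768 for siHsc70, of which the channel genes took 0.202% and 0.193%. The targeted gene Hspa8 was at 1399 CPM with siSCR and 506.9 CPM with siHsc70, so the knockdown was partial.

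Of the 124 channel genes, 81 were measured, and 8 of these were at least 2-fold lower in siHsc70 (9.88%, against 5.14% of the 13518 measured genes of the table). Another 2 were at least 2-fold higher (2.47%, against 2.29% of all measured genes). The other 71 did not reach this rule, although the CPM ratios of some low genes among them reached 2. The lower genes were Kcnj12, Kcnq3, Kcnmb4, Kcnd2, Cacnb4, Cacng4, Kcna3 and Kcnj10, and the higher ones were Kcnc4 and Kcnt2. The median difference over the measured members was -0.19 (middle 50% from -0.55 to 0.28), beside -0.0034 for all measured genes (-0.28 to 0.27). It was -0.060 with a minimum mean of 5 CPM (49 members) and -0.047 over all 124 members. Members that were lower by any amount numbered 47 and those higher 34. By a 1.5-fold rule 20 members were lower, beside 12% of all measured genes, and 9 were higher, beside 9.65%. By class, 8 of the 52 measured potassium channel genes passed the rule, 6 of them lower and 2 higher. None of the 11 measured sodium channel genes passed the rule. Of 18 measured calcium channel genes 2 did, Cacnb4 and the Cacng gene Cacng4, both of them lower. The family counts below are read beside the same shares of all measured genes, 5.14% lower and 2.29% higher. The members' summed level was 2000 CPM with siSCR and 1943 CPM with siHsc70.

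**Figure D1:**
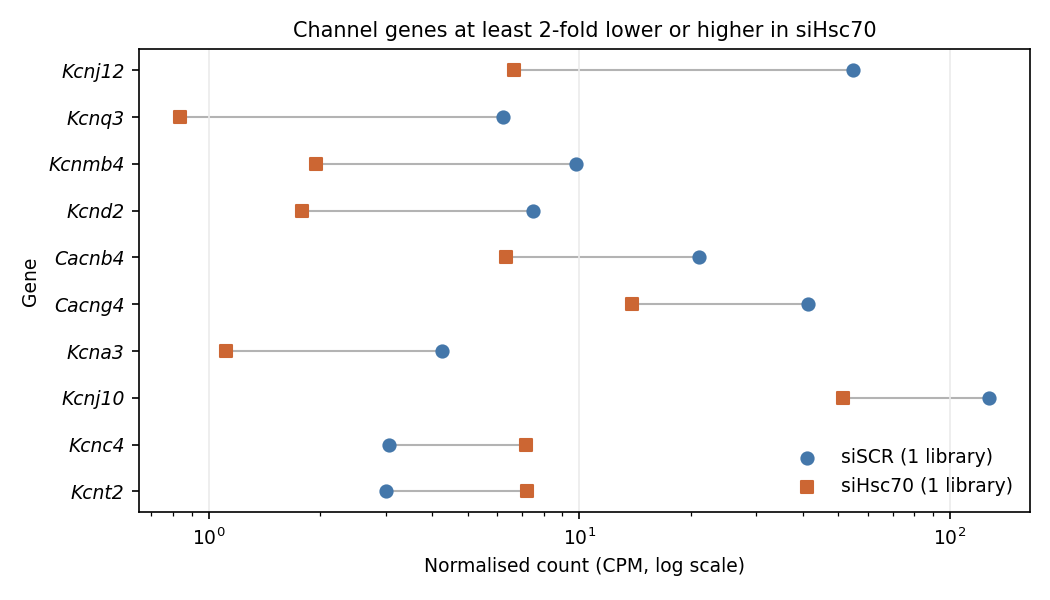
Normalised count (CPM, log axis) of the 10 channel genes at least 2-fold lower or higher, with a circle for the siSCR library and a square for the siHsc70 library of each gene. Kcnj12 spans the widest distance, from 54.8 to 6.67 CPM, and Kcnc4 and Kcnt2 are the genes whose square lies to the right of the circle.

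In the same libraries the markers of the lineage differed by more than most channel genes. Of 10 oligodendrocyte markers, 9 were at least 2-fold lower and 0 higher in siHsc70, and their summed level was 8183 CPM with siSCR and 1516 CPM with siHsc70. Of 9 measured OPC markers 5 were at least 2-fold lower, with sums of 4929 and 3605 CPM. Among 13 measured neuron markers 2 were lower (Dcx and Elavl3) and 0 higher by this rule, with sums of 890.0 and 683.9 CPM. Of the 13, however, 7 were above 0 in difference (median 0.17), among them Gad2 (4.885 and 10.62 CPM) and Snap25 (10.03 and 20.07 CPM). The 6 below 0 included Syt1 (26.35 and 14.57 CPM) and Map2 (526.3 and 340.0 CPM), the largest part of the sum in both libraries. Slc17a7, of excitatory neurons, was at 3 counts and 0 counts. Among 9 measured astrocyte markers Aqp4 and Gfap were at least 2-fold lower and 6 others were above 0 in difference, with sums of 3887 and 3412 CPM. Of 8 microglia markers 1 was measured (Tmem119), and Aif1 was at 0 counts in siSCR and 0.0556 CPM in siHsc70. Endothelial markers summed to 8.991 and 5.449 CPM, with Kdr lower and Cdh5 at 1 count and 0 counts. Fibroblast and mural markers summed to 40.69 and 100.9 CPM, with Col1a1 higher. The part of these shifts in the channel differences was not tested. In bulk RNA, fewer cells of a type and less RNA per cell cannot be told apart.

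Promoter windows, from 250 bases before to 50 bases after the gene's start, were found by gene ID in the RefSeq table (build GRCr8) for 84 of the 124 members. Of the 8 lower genes 4 had one: Kcnj10, Kcnmb4, Kcnd2 and Kcna3. They were searched on both strands for the letters ACAAAG and ACAATG, which SOX proteins such as SOX10 can bind, because Sox10 itself was at 562.5 CPM with siSCR and 98.92 CPM with siHsc70. The letters were present in 2 of these 4 windows and in 1 of 2 windows of the higher genes. Of 48 windows of measured members under the 2-fold rule, 7 held them (14.6%). Among all 27457 promoter windows 28.6% hold them, and among those of measured genes 19.1%. The windows of Kcnj10 and Kcnmb4, which hold a match, and of Kcnd2, which holds none, are printed 5′ to 3′ on the gene's strand, with the matched letters in capitals. Those of Kcnj10 (chr13:87334260-87334559, plus strand) and Kcnd2 (chr4:50742235-50742534, plus strand) have a GC content of 70.3% and 61.7%, and that of Kcnmb4 (chr7:54005052-54005351, minus strand) has 80.7%. The match begins 112 bases before the start of Kcnj10, and 137 bases before that of Kcnmb4, where the printed strand reads CTTTGT.
Kcnj10: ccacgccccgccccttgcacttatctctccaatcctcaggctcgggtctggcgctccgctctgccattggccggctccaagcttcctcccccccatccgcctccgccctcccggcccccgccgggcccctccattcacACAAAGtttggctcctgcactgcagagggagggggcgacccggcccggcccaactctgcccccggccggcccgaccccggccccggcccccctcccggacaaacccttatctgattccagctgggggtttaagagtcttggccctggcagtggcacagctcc
Kcnmb4: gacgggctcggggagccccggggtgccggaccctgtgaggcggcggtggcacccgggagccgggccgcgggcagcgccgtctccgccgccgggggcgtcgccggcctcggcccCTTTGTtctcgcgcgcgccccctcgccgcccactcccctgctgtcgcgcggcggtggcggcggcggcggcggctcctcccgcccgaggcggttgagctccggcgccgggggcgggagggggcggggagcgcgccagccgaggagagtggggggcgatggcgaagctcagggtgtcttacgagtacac
Kcnd2: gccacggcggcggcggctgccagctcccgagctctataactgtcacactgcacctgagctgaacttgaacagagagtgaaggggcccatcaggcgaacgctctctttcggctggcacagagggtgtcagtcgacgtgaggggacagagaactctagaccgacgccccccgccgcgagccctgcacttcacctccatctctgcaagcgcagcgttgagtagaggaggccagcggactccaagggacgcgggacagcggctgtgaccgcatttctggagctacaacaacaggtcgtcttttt
A match is a run of letters and not evidence that a factor binds there.

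Inward rectifier potassium channels pass current more readily into the cell than out of it, hold the resting potential and clear extracellular potassium. Their summed level was 231.7 CPM with siSCR and 120.4 CPM with siHsc70, the lowest siHsc70 to siSCR ratio of the 11 families (0.520), and Kcnj10 and Kcnj12 were the members at least 2-fold lower. Of 14 members 6 were measured. Kcnj10 was at 127.6 CPM with siSCR and 51.32 CPM with siHsc70, 2.49-fold lower (2.30 to 2.68). It supplied 67.7% of the family's TPM in siSCR and 55.7% in siHsc70, and so led the family in both. Kcnj12, which encodes the strong rectifier Kir2.2, was at 54.83 CPM with siSCR and 6.673 CPM with siHsc70. That was 8.22-fold lower (6.80 to 10.0) and the largest difference of any measured channel gene under TMM scaling (-2.86). Its share of the family's TPM was 14.9% in siSCR and 3.60% in siHsc70.

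The other 4 measured inward rectifiers lay under the rule, 2 higher and 2 lower. Kcnj16 encodes Kir5.1, a subunit that joins Kir4.1 in mixed channels. It was at 10.81 CPM with siSCR and 20.02 CPM with siHsc70, a difference of 0.83 that did not reach the 2-fold rule (1.85-fold higher, 1.56 to 2.21). The ratio of Kcnj10 to its partner Kcnj16 therefore differed in TPM, with 122.6 beside 7.48 TPM in siSCR and 44.76 beside 12.18 TPM in siHsc70. Kcnj2, encoding the strong rectifier Kir2.1 of the same subfamily as Kcnj12, was at 13.82 and 23.47 CPM in siSCR and siHsc70, 1.70-fold higher (1.45 to 1.99). Kcnj9, encoding a subunit of G protein-gated channels, was at 7.276 and 3.948 CPM, 1.84-fold lower (1.38 to 2.49). Kcnj14 was at 12.42 and 10.45 CPM, and its interval included no difference. The 8 members below 1 CPM included Kcnj11, the pore of ATP-sensitive channels, with 21 counts in siSCR and 6 in siHsc70. Astrocytes also express Kcnj10. Of 9 measured astrocyte markers 2 were at least 2-fold lower, Aqp4 at 85.03 and 20.57 CPM and Gfap at 1416 and 667.3 CPM, but the list's median was 0.28. Those above 0 included Aldh1l1 (20.37 and 32.86 CPM), Sox9 (100.6 and 154.9 CPM) and S100b (238.8 and 362.6 CPM).

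**Figure D2:**
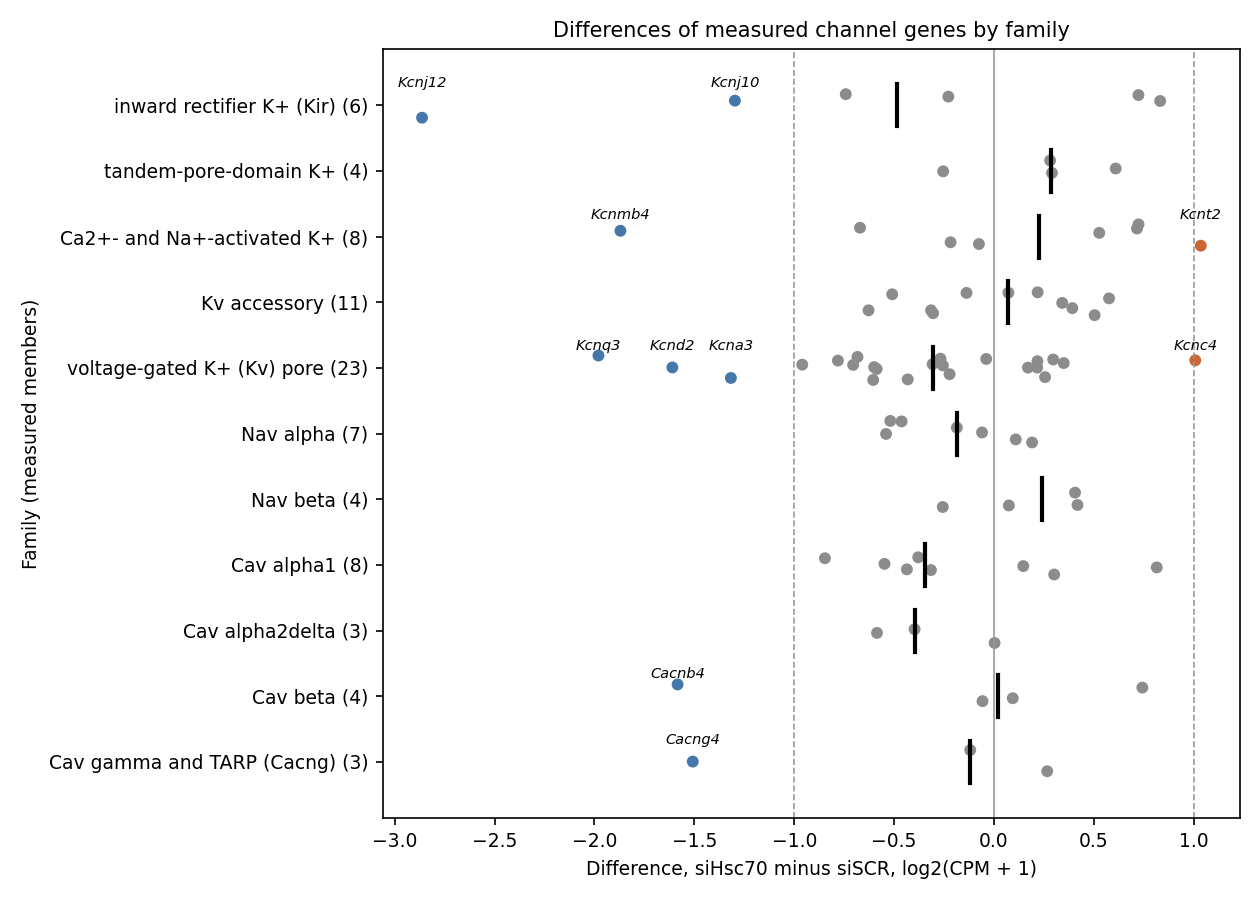
Difference of each measured channel gene (log2(CPM + 1), siHsc70 minus siSCR) by family, with the number of measured members in brackets, a black bar at the family's median and dashed lines at the 2-fold rule. Members past the rule are coloured and named, and 71 of the 81 points lie between the dashed lines.

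Calcium- and sodium-activated potassium channels open when these ions accumulate in the cell and repolarise it. Of 10 members 8 were measured, with Kcnmb4 at least 2-fold lower, Kcnt2 at least 2-fold higher, and a family sum of 307.7 CPM with siSCR and 398.5 CPM with siHsc70. Kcnn2, the pore of the small-conductance SK2 channel, had the highest mean TPM of the potassium channel genes, at 103.5 in siSCR, where Kcnj10 was higher, and 157.0 in siHsc70. By CPM it was at 120.5 and 198.5, 1.65-fold higher (1.56 to 1.74) and short of the rule. Its close relative Kcnn3, encoding SK3, lay in the opposite direction, at 62.11 CPM with siSCR and 38.65 CPM with siHsc70, 1.61-fold lower (1.46 to 1.77). Kcnn1 was at 7.848 and 7.395 CPM, and Kcnn4, the intermediate-conductance channel, was at 1.559 and 3.225 CPM from 30 and 58 counts.

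The large-conductance BK channel consists of a pore encoded by Kcnma1 and accessory beta subunits. The pore gene was at 12.32 CPM with siSCR and 10.45 CPM with siHsc70, and its counting interval included no difference (1.18-fold lower, 0.969 to 1.44). The beta subunit gene Kcnmb4, abundant in brain, was at 9.771 CPM with siSCR and 1.946 CPM with siHsc70, 5.02-fold lower (3.49 to 7.42). The accessory gene was thus several-fold lower beside a pore gene at a similar level in both libraries. The sodium-activated channel genes Kcnt1 and Kcnt2 were both higher in siHsc70. Kcnt1 was at 90.48 and 130.8 CPM in siSCR and siHsc70, 1.45-fold higher (1.36 to 1.54), and Kcnt2 was at 3.014 and 7.229 CPM, 2.40-fold higher (1.75 to 3.33). The difference of Kcnt2, 1.04, fell below the rule on the deposited TPM or FPKM and when 5 was the pseudocount, reaching 0.61 at the lowest.

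Voltage-gated potassium channels, the delayed rectifier and A-type currents of OPCs, form the largest family. Of 37 pore members 23 were measured, with a median of -0.31 and 16 members below 0. By the 2-fold rule 3 were lower (13.0%, against 5.14% of all measured genes) and 1 higher (4.35%, against 2.29%). With a minimum mean of 5 CPM or a pseudocount of 5, 0 were lower, and with a pseudocount of 0.1, 6 were. The summed level of the 37 pore genes was 343.6 CPM with siSCR and 283.2 CPM with siHsc70. Kcna1 had the highest mean TPM, at 38.44 in siSCR and 28.76 in siHsc70, followed by Kcna2 at 19.15 and 14.51. The differences of these Shaker-type genes were small, -0.27 for Kcna1 and -0.26 for Kcna2. Kcna3, encoding a Shaker-type channel linked to OPC proliferation, was at 4.262 CPM with siSCR and 1.112 CPM with siHsc70, 3.83-fold lower (2.33 to 6.60) from 82 and 20 counts. Kcna6 was at 6.548 and 3.392 CPM, 1.93-fold lower (1.41 to 2.67) and short of the rule. Kcna5, a further Shaker-type gene of OPCs, had 1 count in siSCR and 0 in siHsc70, which is under the limit of 3 counts that a count of 0 allows (0.167 CPM in siHsc70).

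A-type channels of the Kv4 group inactivate quickly and work in complexes with KChIP and DPP-like proteins. Of their pore genes, Kcnd2 was at 7.484 CPM with siSCR and 1.779 CPM with siHsc70, 4.21-fold lower (2.85 to 6.38). A row now named Kcnd2l1 in RefSeq, deposited under a locus name, may share reads with it, and with that row added the gene was 4.02-fold lower (2.79 to 5.91). Kcnd3 was at 45.79 and 36.81 CPM, 1.24-fold lower (1.12 to 1.38), and Kcnd1 was at 15.59 and 20.13 CPM, 1.29-fold higher (1.11 to 1.51). The least abundant of the 3 Kv4 genes was therefore the one past the rule. Of their partners, Kcnip3 was at 28.22 CPM with siSCR and 17.90 CPM with siHsc70 (1.58-fold lower, 1.37 to 1.82), and the DPP-like gene Dpp10 was at 28.95 and 3.892 CPM (7.44-fold lower, 5.79 to 9.68). Dpp6 was at 51.92 and 21.57 CPM (2.41-fold lower, 2.14 to 2.71). The other measured KChIP genes did not share this direction as a group. Kcnip4 was at 1.611 CPM with siSCR and 2.891 CPM with siHsc70 (1.8-fold higher, 1.13 to 2.90). Kcnip1 was at 2.599 and 3.559 CPM and Kcnip2 at 1.403 and 0.9453 CPM, and both intervals included no difference.

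Among M-type channels, which open slowly below spike threshold, Kcnq3 was at 6.237 CPM with siSCR and 0.8341 CPM with siHsc70, from 120 and 15 counts. It was 7.48-fold lower (4.36 to 13.8) and the only called gene with under 1 CPM in either library. Kcnq5, its possible partner, was at 20.74 and 24.24 CPM, with a difference of 0.22. The differences of Kcna3, Kcnd2 and Kcnq3 were under the rule with a pseudocount of 5, and these genes did not reach a minimum mean of 5 CPM. Kcnq3 was also under it on the deposited FPKM.

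The Shaw-type genes, whose channels open at strong depolarisation, divided. Kcnc4 was at 3.066 CPM with siSCR and 7.173 CPM with siHsc70, 2.34-fold higher (1.71 to 3.24), with a difference of 1.01 that was under the rule with RLE or library total scaling, on the deposited TPM or FPKM and when 5 was the pseudocount. Kcnc1 was at 10.97 and 6.339 CPM, 1.73-fold lower (1.37 to 2.19). Just outside the rule lay Kcnh2, an ERG-type gene, at 6.029 CPM with siSCR and 2.613 CPM with siHsc70 with a difference of -0.96. Just inside it lay Kcnc4 among the higher genes. Of the lower genes Kcnj10 was the nearest to the rule, at -1.30, and its difference ran from -1.43 to -1.235 over 8 settings.

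Accessory subunits of voltage-gated potassium channels, which alter their gating and transport, showed no member past the rule. Of 13 members 11 were measured, with a median of 0.072 and 5 below and 6 above 0. Kcnab2, encoding a cytoplasmic beta subunit of Shaker-type channels, was at 49.32 CPM with siSCR and 70.34 CPM with siHsc70, 1.43-fold higher (1.31 to 1.55). It was the family's most abundant member by TPM, at 30.32 and 38.93. Kcne5, a single-pass subunit, was at 23.28 TPM in siSCR and 28.75 TPM in siHsc70.

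Tandem-pore-domain potassium channels carry the background leak current. Of 11 members 4 were measured and 0 passed the rule, and the family sum was 49.01 CPM with siSCR and 60.61 CPM with siHsc70. Kcnk10, a mechanosensitive leak channel gene, supplied 68.2% and 67.2% of the family's TPM and was at 38.04 and 46.43 CPM in siSCR and siHsc70 (1.22-fold higher, 1.10 to 1.35). Its relative Kcnk2 was at 3.274 and 4.226 CPM, and the acid-sensitive Kcnk3 was at 2.755 and 4.726 CPM (1.72-fold higher, 1.20 to 2.47). Kcnk1, a weakly rectifying leak channel gene, had 6 counts in siSCR and 0 in siHsc70, at least 1.87-fold lower against 3 counts in siHsc70.

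**Figure D3:**
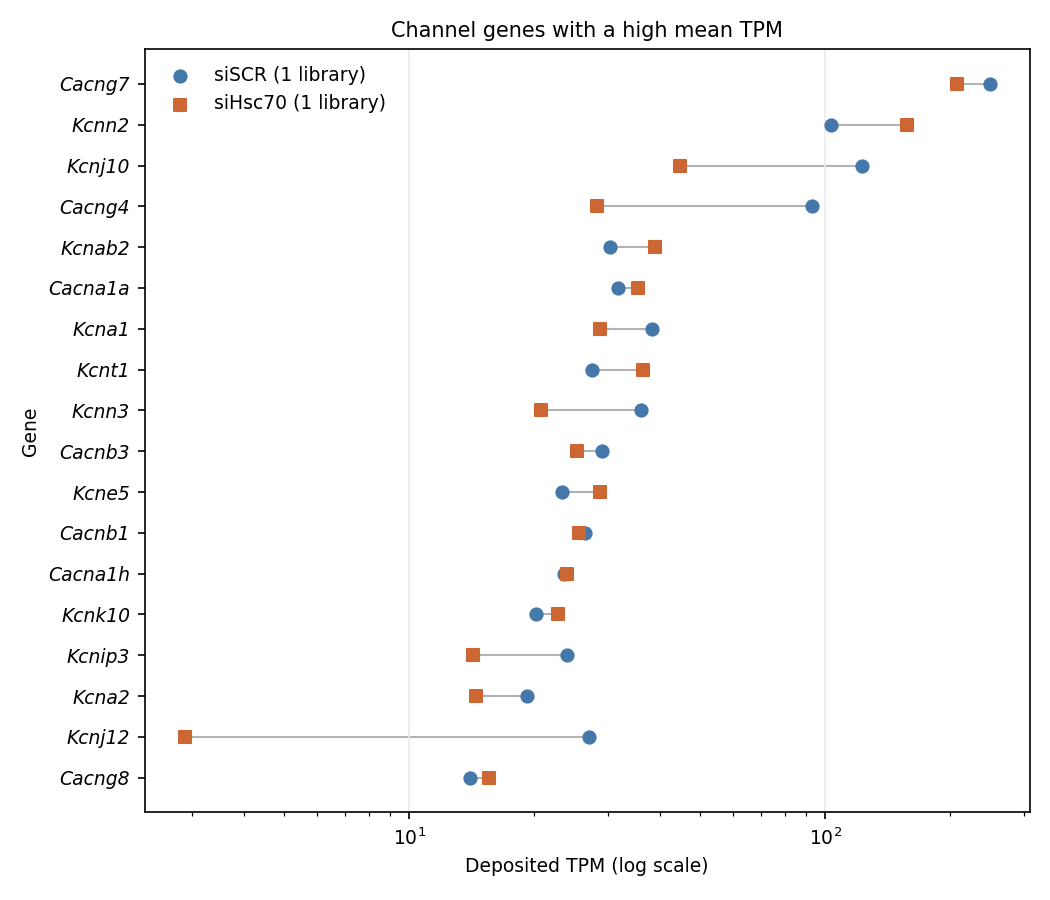
Deposited TPM (log axis) of channel genes with a high mean TPM, ordered by that mean, with a circle for the siSCR library and a square for the siHsc70 library. Cacng7 leads in both libraries, and Kcnj12 shows the widest gap, from 27.06 to 2.89 TPM.

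Sodium channels consist of a large alpha subunit that forms the pore and beta subunits that adjust gating and act in adhesion. Of 13 members 11 were measured and 0 passed the rule, beside 5.14% lower and 2.29% higher of all measured genes. The sums of alpha and beta genes differed in opposite directions: the alpha genes summed to 52.80 CPM with siSCR and 41.37 CPM with siHsc70, and the beta genes to 149.3 and 185.1 CPM. Scn8a, the main alpha subunit of mature nodes of Ranvier, was the most abundant alpha gene, at 27.55 CPM with siSCR and 18.63 CPM with siHsc70, 1.48-fold lower (1.29 to 1.70). Scn1a was at 4.210 and 2.780 CPM (1.51-fold lower, 1.05 to 2.20), and Scn3a, an embryonic isoform, was at 3.222 and 1.946 CPM (1.66-fold lower, 1.08 to 2.58). Scn2a, an early alpha subunit of unmyelinated axons, was at 8.679 and 8.285 CPM, and its interval included no difference. Scn2b was at 13.36 and 18.02 CPM (1.35-fold higher, 1.14 to 1.60), whereas Scn3b was at 27.96 and 23.24 CPM (1.20-fold lower, 1.06 to 1.37).

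Voltage-gated calcium channels are built around an alpha1 pore. Of 10 alpha1 members 8 were measured and 0 passed the rule, and their summed level was 287.3 CPM with siSCR and 317.4 CPM with siHsc70. Their median difference lay in the other direction, at -0.35, with 5 members below 0 and 3 above. Cacna1a, the P/Q-type pore of synaptic terminals, was at 138.1 CPM with siSCR and 170.4 CPM with siHsc70, 1.23-fold higher (1.17 to 1.30). With the T-type gene Cacna1h, at 88.87 and 98.48 CPM, it made up most of the family's TPM (46.4% and 34.4% in siSCR). The L-type genes were lower by less than 2-fold. Cacna1c, the L-type pore linked to OPC maturation, was at 12.99 and 9.342 CPM (1.39-fold lower, 1.14 to 1.70), and Cacna1d was at 17.62 and 13.96 CPM (1.26-fold lower, 1.07 to 1.49). Cacna1e, the R-type pore, lay closest to the rule at 5.197 and 2.447 CPM, with a difference of -0.85.

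Auxiliary subunits of calcium channels govern their delivery to the membrane, and here 1 beta gene was past the rule. Cacnb4 was at 21.00 CPM with siSCR and 6.339 CPM with siHsc70, 3.31-fold lower (2.68 to 4.11). The other beta genes did not share this difference: Cacnb1 was at 42.56 and 45.48 CPM, Cacnb3 at 34.30 and 32.92 CPM, and Cacnb2 at 9.303 and 16.24 CPM (1.75-fold higher, 1.44 to 2.11). Cacnb4 supplied 5.87 of the family's 66.77 TPM in siSCR. Of the alpha2delta genes, Cacna2d1, whose protein binds gabapentin, was at 44.18 and 44.26 CPM, and Cacna2d3 was at 2.755 and 1.501 CPM (1.84-fold lower, 1.13 to 3.03).

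Most Cacng genes encode transmembrane AMPA receptor regulatory proteins, which accompany AMPA-type glutamate receptors at the membrane. They included the most abundant member of all, Cacng7, at 248.2 TPM in siSCR and 207.2 TPM in siHsc70. By CPM Cacng7 was at 235.4 and 216.7, 1.09-fold lower (1.04 to 1.13). Cacng4 was at 41.37 CPM with siSCR and 13.90 CPM with siHsc70, 2.98-fold lower (2.58 to 3.44). Its share of the family's TPM was 26.0% in siSCR and 11.2% in siHsc70, and that of Cacng7 was 69.5% and 82.4%. Cacng8 was at 8.108 and 9.953 CPM, and its interval included no difference. The other 5 Cacng genes had at most 19 counts in a library, with Cacng5 at 8 counts in siSCR and 0 in siHsc70, at least 2.49-fold lower against 3 counts in siHsc70.

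The 43 channel genes that were not measured had at most 1.77 TPM in either library. Rounded counts were 0 in siSCR for 5 of them and 0 in siHsc70 for 7. Of the 81 measured members, 7 were under 1 CPM in 1 library, and Kcnq3 was the one of these past the rule. Ratios without the pseudocount reached 2 for 6 further measured genes that the rule left out, lower for Kcnh2, Cacna1e, Kcnb2, Kcnc2 and Kcnh5 and higher for Kcnn4. The genes at least 2-fold lower did not share 1 gene size. Their genomic spans in RefSeq (GRCr8) ran from 1.95 to 502 kb. Their median span was 57.5 kb, beside 65.7 kb for the measured members under the 2-fold rule.

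The 4 lists of related genes were read in the same way, beside the 5.14% of all measured genes that were at least 2-fold lower and the 2.29% higher. Of 30 measured channel partners and regulators 7 were lower and 0 higher. Dpp10 was followed by Nfasc, encoding the neurofascins that assemble nodal and paranodal junctions, at 937.5 CPM with siSCR and 198.2 CPM with siHsc70 (4.73-fold lower, 4.56 to 4.90). The remaining ones, named after their values were seen, were Ank3, the ankyrin that anchors nodal channels (40.02 and 10.45 CPM), Sgk1, Fgf11, Dpp6 and Akap6. Several oligodendrocyte genes such as Nfasc are in this list. Of 31 measured cation channels outside the Kcn, Scn and Cacn families 5 were lower and 1 higher. The acid-sensing channel genes Asic1 (65.17 and 17.57 CPM, 3.71-fold lower, 3.28 to 4.21) and Asic4 (6.133 and 1.501 CPM) were the lowest. The proton channel gene Hvcn1 was higher, at 1.351 CPM with siSCR and 4.115 CPM with siHsc70. The sodium leak channel genes Nalcn and Unc79, together with Hcn2, were the other lower ones, named after their values were seen. Unc80, in the same list, was at 17.83 CPM with siSCR and 18.85 CPM with siHsc70, and its interval included no difference.

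Of 31 measured genes of ion pumps, exchangers and calcium stores 4 were lower and 1 higher. Slc24a3, a potassium-dependent sodium-calcium exchanger gene, was at 44.96 CPM with siSCR and 14.90 CPM with siHsc70 (3.02-fold lower, 2.63 to 3.47). Itpr3, an inositol trisphosphate receptor gene, was higher at 3.898 and 10.56 CPM, while its relative Itpr2 (230.1 and 95.70 CPM) and the exchanger gene Slc8a2 (18.24 and 5.894 CPM), both named after their values were seen, were lower. Of 24 measured chloride channel genes 2 were lower, Ano4 (40.75 and 13.73 CPM) and Clcn4 (80.04 and 36.14 CPM), and Lrrc8e, a volume-regulated channel subunit, was higher (1.247 and 4.115 CPM). The median differences of these 4 lists were -0.22, 0.076, -0.077 and 0.091.

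**Figure D4:**
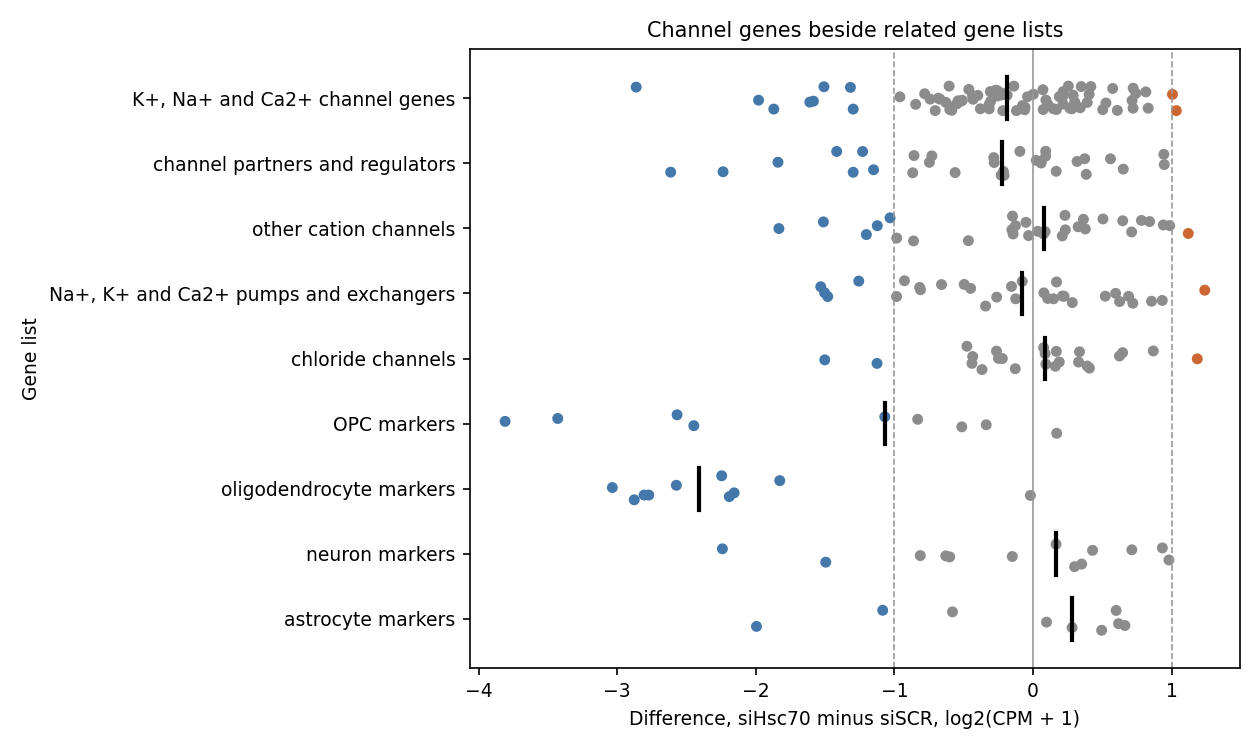
Difference of each measured gene (log2(CPM + 1), siHsc70 minus siSCR) in the channel families, 4 related lists and 4 marker lists, with a black bar at each list's median and dashed lines at the 2-fold rule. The oligodendrocyte markers centre at -2.41, and the channel genes centre at -0.19 with most points between the dashed lines.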

How the data were processed

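RNA sequencing of 2 libraries, 1 per siRNA, was used. A table of the whole series holds the deposited estimated counts, FPKM and TPM of each library, named so per the file headers, and columns were tied to samples by the siRNA in their names. The deposited estimated counts were not normalised and need not be whole. FPKM is scaled by the authors for transcript length and library size, and each deposited TPM column sums to the same total. The submitters' processing notes name the mouse build mm39, whereas all 124 member gene IDs and symbols were found in the rat RefSeq table (GRCr8), so no coordinates were taken from the study. Aligner, quantification program and strand setting: not given in the sources used here.

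Counts were rounded and scaled to CPM over the whole table with TMM factors (1.01 for siSCR, 0.992 for siHsc70) of edgeR 4.0.16 in R 4.3.3. A count of 0 allows up to 3 counts, which is 0.156 CPM with siSCR and 0.167 CPM with siHsc70. PCR copies are not independent molecules. With 1 library per group no p-value was computed. Intervals came from SciPy 1.17.1. The procedure was tested on simulated data that held counting error only, so the test did not cover the spread between cultures. Members and lists were chosen with earlier results of these data known. Named members were those past the 2-fold rule, in each family the member with the highest mean TPM and the one with the largest difference, the 10 members with the highest mean TPM, and 21 preset genes (40 in all), some of which are not reported here. From each related list up to 2 higher and 2 lower genes were named. Other members named were chosen after their values were seen. Other pseudocounts, minimum means, scalings, units, a 1.5-fold rule and RefSeq symbols were also tried (11 alternatives).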

Additional observations from a re-analysis of the deposited data

How the results depend on the processing

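With 1 library per group, differences between cultures could not be separated from differences between siRNAs, and members with few counts have wide intervals. No paired analysis was possible because each group has 1 library. All 8 lower genes remained so with no minimum mean, with RLE, upper-quartile or library total scaling and with the deposited TPM, and 7 remained with the deposited FPKM, without Kcnq3. In these settings the share of all genes that were lower ran from 3.82% with the deposited FPKM to 5.88% with the deposited TPM. With a pseudocount of 5 and with a minimum mean of 5 CPM, 5 channel genes were at least 2-fold lower, 3 of them potassium channel genes, against 8 and 6. Of all measured genes 3.08% and 4.83% were lower in these settings, against 5.14%. With a pseudocount of 0.1 there were 12 lower genes, with Cacna1e, Kcnc2, Kcnh2 and Kcnh5 added, and 3 higher, with Kcnn4 added. Of all measured genes 6.64% were then lower and 3.83% higher. The 2 higher genes, both potassium channel genes, became 1 with RLE or library total scaling and 0 with a pseudocount of 5, the deposited TPM or the deposited FPKM. The share of all measured genes that were higher, 2.29% in the main setting, was 2.17% with RLE and 2.1% with library total scaling. It was 0.976% with a pseudocount of 5, 1.4% with the deposited TPM and 1.49% with the deposited FPKM. With a 1.5-fold rule 20 channel genes were lower and 9 higher, beside 12% and 9.65% of all measured genes. Of these, 16 lower and 7 higher were potassium channel genes and 4 lower and 2 higher were calcium channel genes. The median of the potassium channel genes was -0.33 with the deposited TPM against -0.22, and with no minimum mean it was 0.0047 and that of the sodium channel genes 0.074, against -0.060. The median of all channel genes ranged from -0.30 with the deposited TPM to -0.047 with no minimum mean. On the deposited TPM the median of all measured genes was also below 0, as given above. Over 8 settings, 73 of the 81 measured members kept their direction. The other 8, which included Cacna2d1, Cacnb1 and Cacnb3, had TMM-scaled differences of at most 0.11. All settings used the same 2 libraries, and a change of pseudocount cannot change a direction. The count therefore does not show whether directions would hold in other cultures. Adding the Kcnd2l1 row to Kcnd2, chosen after the data were seen, gave -1.57 against -1.61. The cause of these shifts was not tested, except that a higher minimum leaves fewer genes (49 members).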

Other observations

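In a few channel genes the deposited TPM and the counts gave different ratios, chosen here after their values were seen. The count obtained per unit of FPKM reflects the transcript length assumed for a gene in a library, and it was computed for the 49 members with an FPKM of at least 1 in both libraries. Relative to the median gene, its siHsc70 to siSCR ratio was within 0.05 of 1 for 45 of these 49. For Kcne4, an accessory subunit gene, it was 0.838: the gene had 161 and 178 counts in siSCR and siHsc70, 8.86 and 11.31 TPM. For Kcnj2 it was 0.890 and for Kcnn1 0.914, whereas for Cacna1b, the N-type calcium channel pore, it was 1.08. Which transcripts were counted for these genes was not analysed here.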
